A study of Mus musculus with 12 samples.

Results

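Lymphatic endothelial cells (LECs) were the subject of the measurements below. They were picked out of single-cell RNA sequencing of the stromal vascular fraction (SVF), the cells left after the floating adipocytes of digested fat are taken off, by a rule on raw counts of unique molecular identifiers (UMIs, one per captured transcript end). A barcode with 700 to 22000 UMIs, 200 to 6000 genes and under 25% mitochondrial UMIs was kept as a cell. A kept cell was called a LEC if it held at least 1 UMI of Prox1, at least 1 of Mmrn1 or Flt4, at least 1 of Cdh5 or Pecam1, and 0 of Ptprc and of Pdgfra. Of 126095 kept cells, 81 were LECs. The cells were thus selected on the measured UMIs of 7 genes, whose levels are given as a description without a test.

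The SVF came from 12-week-old male mice, from epididymal (eWAT) and inguinal (iWAT) white adipose tissue, with 2 libraries per group and depot, labelled as biological replicates, and 12 in all. WT-Veh mice were C57BL/6J given vehicle. The ob/ob-Veh mice were Lepob/Lepob, which lack leptin and become obese, given the same vehicle. The ob/ob-Rosi mice were Lepob/Lepob given rosiglitazone (Rosi), an agonist of the nuclear receptor PPARγ, at 30 mg/kg. All groups were gavaged morning and evening for 3 days, so no untreated and no lean Rosi group bears on these cells. The study asked how short Rosi treatment remodels the adipose SVF of obese mice.

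Lymphatic vessels of fat drain fluid, fat-laden particles and migrating leukocytes from the tissue towards lymph nodes. Blind-ended initial vessels take up fluid through loose junctions, and collecting vessels with valves carry it on. The transcription factor Prox1 sets and keeps lymphatic identity, and Flt4 encodes VEGFR-3, the receptor for the lymphatic growth factors VEGF-C and VEGF-D.

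The LECs came almost entirely from 3 libraries of eWAT. The eWAT WT-Veh libraries held 15 and 0 LECs, the eWAT ob/ob-Veh libraries 24 and 37, and the eWAT ob/ob-Rosi libraries 1 and 0. In iWAT, 5 libraries held 0 and ob/ob-Rosi library 2 held 4. Thus 77 LECs (95.1%) were from eWAT and 61 (75.3%) from eWAT of ob/ob-Veh mice. Replicates of a group did not always resemble each other: WT-Veh library 2 of eWAT held none, although its kept cells were deeper (median 4398.5 UMIs) than those of WT-Veh library 1 (median 2046 UMIs).

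As a share of the kept cells, LECs were 0.102% of eWAT WT-Veh library 1 (exact 95% binomial interval 0.0571 to 0.168%), 0.262% of ob/ob-Veh library 1 (0.168 to 0.389%) and 0.477% of ob/ob-Veh library 2 (0.336 to 0.657%). They were 0.0106% of eWAT ob/ob-Rosi library 1 (0.000268 to 0.059%) and 0.0229% of iWAT ob/ob-Rosi library 2 (0.00623 to 0.0585%). The ob/ob-Veh libraries of eWAT lay above every other library at full depth. With every cell thinned to 700 UMIs the rule left 25 LECs, of which 9 were in eWAT WT-Veh library 1 and 4 and 11 in the ob/ob-Veh libraries of eWAT, and the ob/ob-Veh minus WT-Veh difference of the mean share over both depots was 0.0311 in place of 0.159 percentage points. In the 7 libraries with 0 LECs, a count of 0 allows a share of up to 0.0176% to 0.0464% of kept cells (3 cells of the library). The exact 95% binomial intervals of these libraries end higher, at 0.0216% to 0.0570%. These intervals and limits cover counting error only.

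As a share of endothelial cells (LECs plus blood endothelial cells, the latter gated as Cdh5 and Pecam1 together at 2 UMIs or more with 0 of Prox1, Mmrn1, Ptprc and Pdgfra), LECs were 6.12% (15 of 245) in eWAT WT-Veh library 1. They were 12.3% (24 of 195) and 7.86% (37 of 471) in the ob/ob-Veh libraries, and 0.292% (1 of 343) and 0 of 697 in the ob/ob-Rosi libraries of eWAT. With every cell thinned to 700 UMIs the ob/ob-Veh minus WT-Veh difference of the mean endothelial share over both depots turned to -0.0281 points. The iWAT libraries held 76 to 1673 endothelial cells, of which at most 0.258% were LECs. A lower share can come from fewer LECs or from more of the other cells, and recovery from the digest bears on both, which cannot be told apart here.

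**Figure D1:**
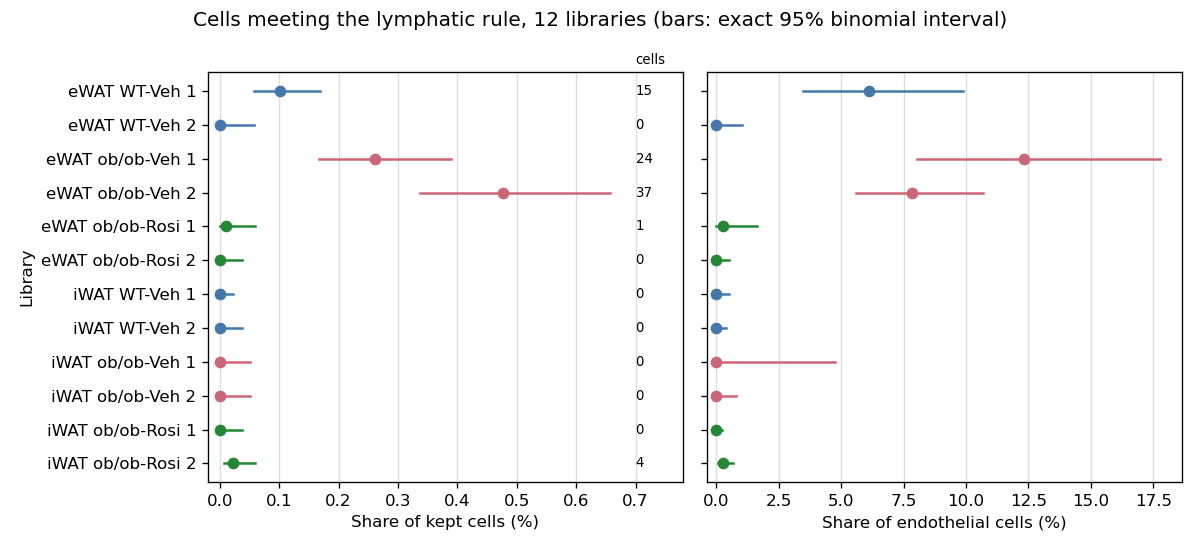
LECs as a share of kept cells (left, percent, with the number of LECs) and of endothelial cells (right, percent) in each of the 12 libraries; points are the shares and bars the exact 95% binomial intervals, coloured by group. The eWAT ob/ob-Veh libraries lie at 0.262% and 0.477% of kept cells, and 7 libraries are at 0.

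Because libraries are the replicates, these shares were compared by two-sided exact permutation tests over libraries, 8 tests in all with Benjamini-Hochberg adjustment. The share of kept cells differed by -0.138 percentage points between iWAT and eWAT, iWAT being lower on average (12 libraries, exact permutation p = 0.139, adjusted p = 0.444). Of endothelial cells the difference was -4.39 points (exact permutation p = 0.0833, adjusted p = 0.444). The share of kept cells was 0.159 points higher in ob/ob-Veh than in WT-Veh (exact permutation p = 0.333, adjusted p = 0.444) and changed by -0.176 points in ob/ob-Rosi against ob/ob-Veh (exact permutation p = 0.333, adjusted p = 0.444). None of these differences exceeded the spread between libraries by this test. The group comparisons over both depots could not reach a p below 0.0556, and those within a depot not below 0.333, so the design cannot pass a threshold of 0.05 there. Within eWAT the difference was 0.319 points for ob/ob-Veh minus WT-Veh and -0.364 points for ob/ob-Rosi minus ob/ob-Veh, each at that smallest p of 0.333 in the exact permutation test.

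Mmrn1, which encodes the secreted glycoprotein multimerin 1, is a gene of the rule, so its totals over all kept cells, LECs included, are a description. It gave 275 and 4 UMIs in the eWAT WT-Veh libraries, 2190 and 2030 in ob/ob-Veh, and 55 and 0 in ob/ob-Rosi. In iWAT, Mmrn1 gave 4 to 41 UMIs per library. Cells that held Mmrn1, Ccl21a and Reln UMIs at once, a criterion that shares Mmrn1 with the rule but not Prox1, numbered 126, of which 73 were LECs by the rule. They numbered 27 and 0 in eWAT WT-Veh, 36 and 58 in ob/ob-Veh, 3 and 0 in ob/ob-Rosi, 2 in iWAT ob/ob-Rosi library 2 and 0 in the 5 other iWAT libraries. Prox1 itself was less specific: the iWAT ob/ob-Veh libraries held 49 and 24 Prox1 UMIs and no LEC.

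At the edge of the rule, 22 LECs held exactly 1 Prox1 UMI and 59 held 2 or more. Ccl21a stood at 9476 CPM in the former and 10725.5 CPM in the latter, where CPM are UMIs of a gene per 1000000 UMIs of the summed cells. Outside the rule, 1533 kept cells failed on Prox1 alone. Of these, 1484 had no Mmrn1 UMI and held Ccl21a at 0.580 and the blood capillary gene Gpihbp1 at 4986 CPM, while the 49 with Mmrn1 held Ccl21a at 2983 CPM. The cells that failed only on Cdh5 and Pecam1 (10), only on Ptprc (12) or only on Pdgfra (5) held Ccl21a at 13090, 6925 and 10255 CPM, so cells like the LECs were left out on either side of these conditions. A Prox1 UMI was found in 0.0927% of the eWAT macrophages gated without a condition on Prox1 (median 4625.5 UMIs per cell), in 0.552% of the eWAT stromal cells (median 3957 UMIs) and in 0.460% of the iWAT stromal cells (median 3496 UMIs). A Ccl21a UMI was found in 0.649% of the eWAT macrophages and 1.09% of the eWAT stromal cells, against 93.5% of the eWAT LECs (median 4171 UMIs). Between libraries, 2066 kept barcodes were shared, and 1 LEC carried such a barcode.

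The 4 iWAT cells that met the rule are called LECs by the rule alone, and the levels of other genes do not bear the name out. These cells held Ccl21a and Reln in sum at 61.3 CPM each, against 10934 and 2312 in the eWAT LECs, and 0 UMIs of Fgl2, Pdpn and Pard6g. Lyve1 stood at 735 CPM in them, between the 3927 of the eWAT LECs and the 20.2 of the eWAT blood endothelial cells, with 10 UMIs in the cell that also held 18 of C1qa and 2 in another. They held Fabp4 at 51845 and Flt1, the blood endothelial VEGF receptor VEGFR-1, at 1287 CPM, close to the 57909 and 1258 of the eWAT blood endothelial cells. Each of the 4 held exactly 1 Prox1 UMI. Ccl21a and Reln rested on 1 UMI each, both in the same cell, and most Lyve1 UMIs lay in the cell with 18 of C1qa. A level above that of blood endothelial cells cannot be read from these counts. All 3 genes were far below the eWAT LECs, while Fabp4 and Flt1 were near the blood endothelial level. The profiles below are therefore of the 77 eWAT LECs.

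Because each UMI counts a transcript end, levels in CPM are not divided by gene length. The 77 eWAT LECs held 822 to 21658 UMIs each (median 4171) and 455362 in all, so that a gene with 0 UMIs may still stand at up to 6.59 CPM (3 UMIs). For comparison, 2226 blood endothelial cells, 15096 macrophages and 8512 stromal cells of eWAT were gated. No test was made between LECs and these cells, since the rule chose them.

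Of the label's markers, Prox1, Mmrn1 and Flt4 chose the cells, and the blood endothelial gate required 0 UMIs of Prox1 and Mmrn1, so their levels do not check the label. In the eWAT LECs Prox1 stood at 804 CPM, Mmrn1 at 6658 and Flt4 at 1184. Lyve1, which encodes a hyaluronan receptor of initial lymphatics and was not part of the rule, stood at 3927 CPM in LECs, 20.2 in blood endothelial cells, 233 in macrophages and 9.49 in stromal cells. Lyve1 was found in 68 of the 77 cells.

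**Figure D2:**
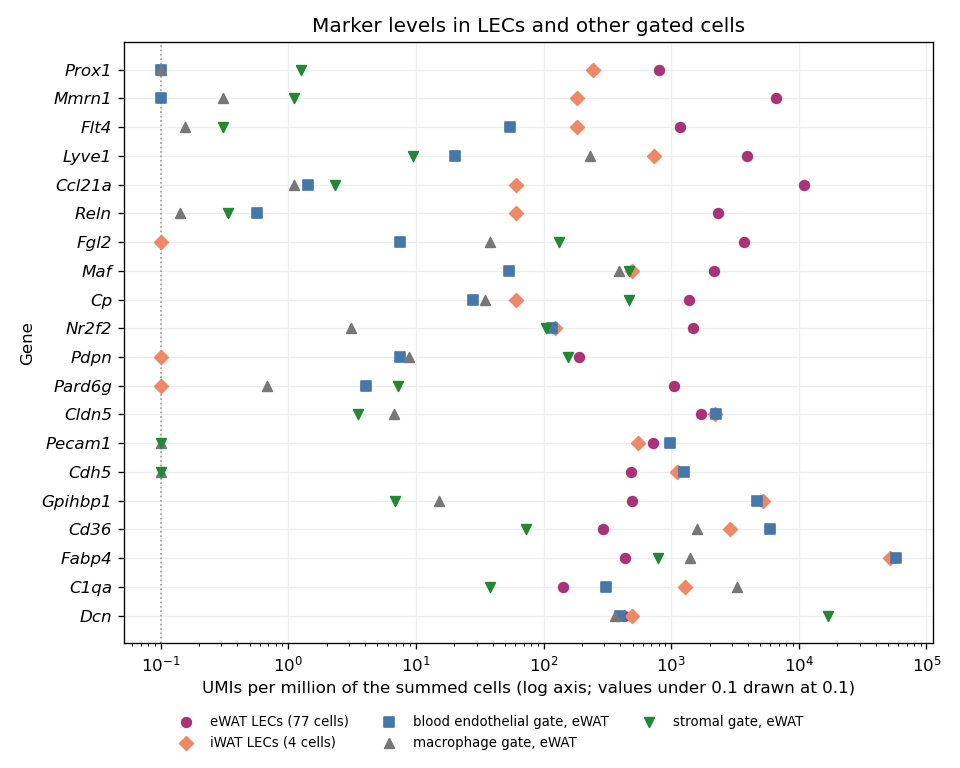
Levels of marker genes in CPM (logarithmic axis, the lowest values drawn at the dotted line), each point the summed cells of a class: 77 eWAT LECs, 4 iWAT LECs and gated eWAT blood endothelial cells, macrophages and stromal cells. Ccl21a and Reln are at 10934 and 2312 CPM in the eWAT LECs and at 61.3 in the iWAT LECs, which hold Fabp4 at 51845 CPM beside the blood endothelial cells at 57909.

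Only Gm42418 and Malat1, noncoding RNAs, had more UMIs in the LECs than Ccl21a (ENSMUSG00000094686), whose product, the chemokine CCL21, draws CCR7-bearing dendritic cells and T cells to lymphatic vessels. It stood at 9201 CPM in the LECs of WT-Veh library 1, 11933 in ob/ob-Veh library 1 and 10422 in ob/ob-Veh library 2, against 1.42 CPM in blood endothelial cells. The mouse carries near-identical copies of this gene on chromosome 4. In the GENCODE vM21 annotation (GRCm38), Ccl21a lies at chr4:42772860-42773993 on the minus strand, and Gm21541 (ENSMUSG00000094065) at chr4:41903610-41904743 on the plus strand. Their transcripts of 870 bases are 99.3% identical, with 6 base differences, of which 3 lie in the last 300 bases, where the 3′ libraries read. The 2 differences within the coding part (bases 76 to 474) are shown because they set the coding parts of the copies apart. They are T159A and C269T, counted from the 5′ base of the transcript, with the base of Ccl21a first and that of Gm21541 last, and each differing base is in capitals.
Ccl21a, bases 145 to 173: agtgatggagggggTcaggactgctgcct
Gm21541, bases 145 to 173: agtgatggagggggAcaggactgctgcct
Ccl21a, bases 255 to 283: ggcaatcctgttctCaccccggaagcact
Gm21541, bases 255 to 283: ggcaatcctgttctTaccccggaagcact

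The counting assigned 112 UMIs of the eWAT LECs to Gm21541 and 4979 to Ccl21a. The Gm21541 share of both was 6.36% in WT-Veh library 1 (25 UMIs beside 368), 2.85% in ob/ob-Veh library 1 (73 beside 2488) and 0.659% in ob/ob-Veh library 2 (14 beside 2112). The share differed between the replicates of ob/ob-Veh as well as between groups. How reads were split between such copies is uncertain, so the copies were also summed, which gave 9826, 12298 and 10496 CPM in the same order of libraries.

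Of the 20 genes fixed as lymphatic identity, 15 stood at 2 or more times their blood endothelial level and 1, Stab2, had 0 UMIs. Over all 8593 genes with at least 5 UMIs in LECs, 17.9% did so, and 6.94% stood at 2 or more times the LEC level in blood endothelial cells. Among secreted products, Reln, the extracellular protein reelin, stood at 2312 CPM against 0.567 and was found in all 77 LECs, and Fgl2, a fibrinogen-like protein, at 3714 against 7.46. Among surface proteins, Pdpn, the membrane glycoprotein podoplanin, stood at 189 CPM against 7.46, Nrp2, a co-receptor of VEGFR-3, at 444 against 154, and Itga9, an integrin needed for lymphatic valves, at 224 against 9.44. Thy1 stood at 549 CPM against 5.76. Among transcription factors, Nr2f2, which acts with Prox1, stood at 1491 against 117, Maf at 2159 against 54.0 and Tbx1 at 215 with 0 UMIs in blood endothelial cells. Cldn5, Sox18 and Gata2, which other endothelial cells use too, were not higher in LECs. Cldn5 stood at 1702 against 2265 CPM, Sox18 at 246 against 271 and Gata2 at 48.3 against 83.0.

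Among the 20 genes with the highest ratio of LEC level to the highest of the 3 other cell types were Gm21541, Mmrn1, Ccl21a, Reln, Apba2, Nts, Scn3a, Tbx1, Dtx1, Prox1, Sh3gl3, Comp, Pard6g, Rgs7bp, Slc38a4, Tc2n, Adgrg3, Il7 and Sgsm1. Several are known mainly from neurons, among them Apba2, an adaptor of the amyloid precursor protein, at 222 CPM, Nts, the peptide neurotensin, at 253 CPM, and Scn3a, a sodium channel subunit, at 266 CPM, each at or below 0.120 CPM in the other cells. Il7, a survival cytokine for T cells, stood at 149 CPM in LECs and at no more than 1.91 CPM in the other cells. The neurotensin level varied between libraries, at 475, 153 and 306 CPM.

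By vessel type, the 6 genes listed for initial lymphatics all stood at 2 or more times the blood endothelial level, and summed to 18803 against 58.3 CPM. Of 10 genes for collecting vessels and valves, 4 did and 3 were lower by the same measure. The forkhead factor Foxc2, which directs valve formation, had 24 UMIs in 14 LECs (52.7 CPM), and Cldn11, a claudin of valve cells, 21 UMIs in 11 LECs (46.1 CPM). The 2 genes were at 0 in WT-Veh library 1, at 38.4 and 24.0 CPM in ob/ob-Veh library 1 and at 74.0 and 79.0 CPM in ob/ob-Veh library 2, but 0 among 39995 UMIs allows up to 75.0 CPM. Gata3 had 0 UMIs, which allows up to 6.59 CPM. Of 10 genes of lymph node lymphatics, 6 (Ccl20, Marco, Csf1, Bst1, Madcam1 and Ackr4) had 0 UMIs and Mrc1, the mannose receptor, stood at 270 CPM in 41 LECs.

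For leukocyte passage, 7 of 24 listed genes stood at 2 or more times the blood endothelial level, and 8 were lower by the same measure. Apart from Ccl21a and Il7, the scavenging chemokine receptors Ackr2 and Ackr3 stood at 134 against 0.378 and 259 against 82.5 CPM, and Spns2, which exports the lymphocyte guide sphingosine 1-phosphate, at 125 against 43.6 CPM. Cxcl12 went the other way, at 52.7 against 676 CPM. In VEGF signalling, Kdr (VEGFR-2) stood at 903 against 1055 CPM and Angpt2, a Tie receptor ligand, at 211 against 25.02 CPM. The ligand gene Vegfc had 1 UMI in the 77 LECs, and Vegfd 6. Among junction genes, Esam stood at 26.4 against 1136 and Jam2 at 4.39 against 233 CPM, while Calcrl, the adrenomedullin receptor that lymphatic vessels need, stood at 365 against 62.2 CPM. In the Notch pathway, Notch1 stood at 327 against 274 CPM and Notch4 at 2.20 against 166.

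Genes by which blood capillaries take up fatty acids were low in LECs. Of 10 blood capillary genes, 9 stood at 2 or more times the LEC level in blood endothelial cells, and they summed to 2758 CPM in LECs against 77010. Fabp4, a fatty acid carrier, stood at 433 against 57909 CPM, Cd36, a fatty acid transporter, at 294 against 5918, and Gpihbp1, which anchors lipoprotein lipase, at 490 against 4735. Flt1 had 1 UMI in all LECs (2.20 CPM) and Car4 none. Of 31 genes for PPAR and lipid handling, 16 were lower by the same measure. Pparg, the target of Rosi, stood at 35.1 CPM in LECs and 225 in blood endothelial cells. Abca1, a cholesterol exporter, was at 444 against 93.7 CPM.

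Within the eWAT LECs, Lyve1 and Ccl21a were not at one level. The Lyve1 counts ran from 0 to 95 per cell (median 16) and those of Ccl21a from 0 to 311 (median 45). Lyve1 had 0 UMIs in 9 cells, and in 5 of these Ccl21a had at most 1. Of the 5, 4 were deep cells with 9661 to 14319 UMIs and 1 held 3643 UMIs. Their median was 10239 UMIs against 3780 for the 72 others. By library, 1 came from ob/ob-Veh library 1 and 4 from ob/ob-Veh library 2. The 4 other cells without Lyve1 had a median of 1569 UMIs, but 1 of them held 3416 UMIs, with 36 of Ccl21a.

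**Figure D3:**
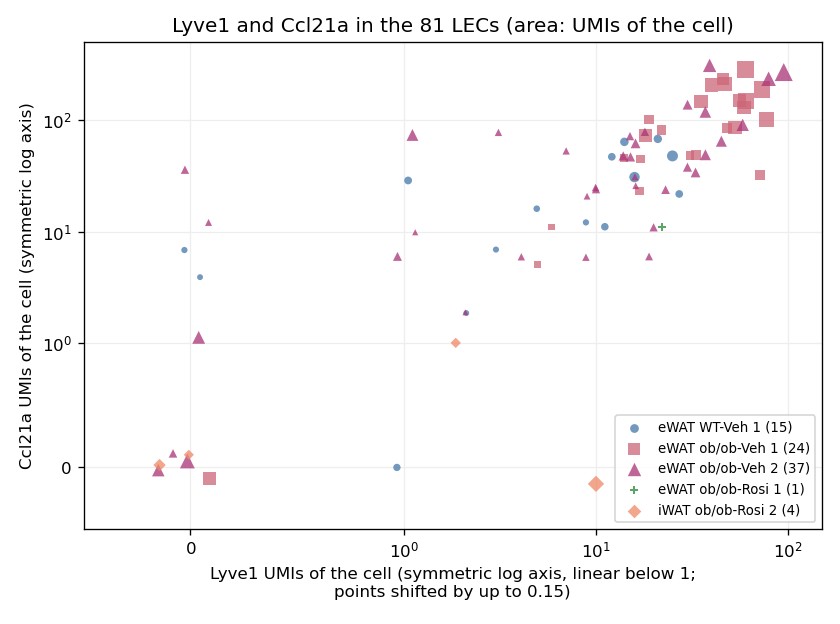
Lyve1 and Ccl21a UMIs in each of the 81 LECs (symmetric logarithmic axes, points shifted by up to 0.15; marker and colour give the library, area the UMIs of the cell). In eWAT, 5 cells of the ob/ob-Veh libraries sit at 0 Lyve1 and at most 1 Ccl21a UMI, near 2 iWAT LECs at 0 of both, while the main body of cells runs to 95 and 311 UMIs.

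These 5 cells were set apart after their values were seen, so they are described without a test. Prox1 and Mmrn1, genes of the rule, stood at 409 CPM against 851 in the 72 others and at 5200 against 6834. Fgl2 stood at 2723 against 3833 and Reln at 962 against 2475, and in sum the 5 had Ccl21a at 20.5 against 12246 CPM. Cldn11 was found in 5 of 5 (12 UMIs, 246 against 22.1 CPM) and Foxc2 in 3 of 5 (6 UMIs, 123 against 44.3 CPM). Of the other genes listed for collecting vessels and valves, Fn1, Gja4, Gata2 and Lama5 were also higher in the 5. Itga9 (164 against 231 CPM) and Gja1 (287 against 344 CPM) were lower, and Neo1 and Gata3 had 0 UMIs in the 5. The 5 cells held more Fabp4 (2109 against 231 CPM) and more Plvap, the diaphragm protein of fenestrae (901 against 44.3 CPM). Ccdc3 stood at 819 against 17.2 CPM, Pdgfb at 287 against 12.3 and Tgfa at 328 against 12.3. Igfbp5, an IGF-binding protein, went the other way, at 164 against 2969 CPM. Flt1 was at 0 UMIs in all 5, and no UMI of the macrophage gene C1qa was found in 3 of them.

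Expression in ob/ob-Veh and WT-Veh LECs could be compared within eWAT alone, since 10 or more LECs were found only in WT-Veh library 1 (15 cells, 39995 UMIs) and ob/ob-Veh libraries 1 and 2 (61 cells, 208496 and 202642 UMIs). LEC counts were summed per library and fitted with edgeR's quasi-likelihood test. With 1 residual degree of freedom, the lone WT-Veh library was assumed to vary as the ob/ob-Veh libraries do, and edgeR gave each gene the common spread. Every call thus sets 1 WT-Veh library against 2, so that the group and that library cannot be told apart, and genes are said to rise or fall between these libraries. The depot effect and both Rosi effects on expression could not be fitted. Of 4752 genes tested, 44 (0.926%) passed an adjusted p of 0.05 and 1.1-fold, 13 higher in ob/ob-Veh (0.274%) and 31 lower (0.652%), and 529 (11.1%) had an unadjusted p under 0.05. For 82.4% of the genes the WT-Veh value lay outside the range of the ob/ob-Veh values. Of the 44 genes, 32 (8 higher and 24 lower) reached the count filter's minimum of 49.3 CPM in libraries of both groups. The 12 others passed the filter through 1 group alone, 5 through ob/ob-Veh and 7 through WT-Veh, where they had to be high, so their calls are not used and their levels are a description. The calls depended on the tool: DESeq2, which gave an adjusted p to 1435 genes, called 5, Col3a1, Mfap5, Col1a1 and Lgals3 lower and Igfbp5 higher. Among these, Mfap5 and Col1a1 passed the filter through WT-Veh alone, so their calls are not used here either.

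Of the 18 tested genes of lymphatic identity, 0 were called by edgeR and 0 by DESeq2, with 13 above and 5 below zero. Over all 4752 tested genes edgeR called 0.926%, with 2640 above and 2112 below zero. At that share, 0 calls among 18 genes is no result about the list. Lyve1 stood at 3675 CPM in WT-Veh and at 4350 and 3514 CPM in the ob/ob-Veh libraries, which enclose the WT-Veh value. Reln stood at 1650 against 2484 and 2245 CPM (log2 change 0.51, SE 0.39, edgeR adjusted p = 0.661) and Fgl2 at 1525 against 4422 and 3420 CPM (1.36, SE 0.41, edgeR adjusted p = 0.0843). For Ccl21a the log2 change was 0.27 (SE 0.38, edgeR adjusted p = 0.871). Of the initial lymphatic list, Ptx3, a long pentraxin of innate immunity, stood at 325 CPM in WT-Veh, with 76.9% of its 13 UMIs in 2 cells, and at 33.6 and 19.7 CPM in ob/ob-Veh. It passed the filter through WT-Veh alone, and none of the 5 other genes of that list was called by edgeR or DESeq2.

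**Figure D4:**
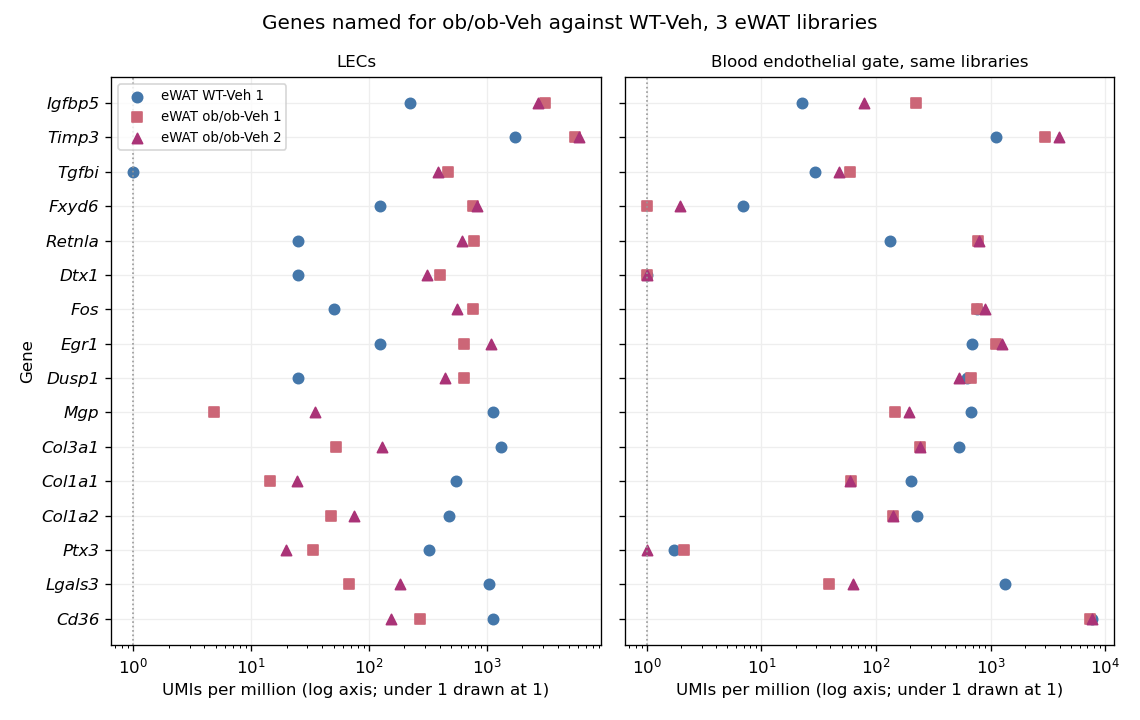
CPM of genes named from the ob/ob-Veh against WT-Veh comparison (logarithmic axis, values under 1 drawn at the dotted line), a point per eWAT library, in LECs (left) and in the blood endothelial cells of the same libraries (right). In LECs Igfbp5 stands at 225 CPM in WT-Veh and at 3122 and 2739 in ob/ob-Veh, and Col3a1 at 1325 against 52.8 and 128 CPM.

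Genes higher in ob/ob-Veh LECs included Igfbp5 and Timp3. Igfbp5 stood at 225 CPM in WT-Veh and at 3122 and 2739 CPM in ob/ob-Veh (log2 change 3.69, SE 0.54, edgeR adjusted p = 4.72e-09), found in 5 of 15 WT-Veh and 52 of 61 ob/ob-Veh cells. Timp3, an inhibitor of metalloproteinases, stood at 1750 CPM against 5660 and 6016 (1.73, SE 0.42, edgeR adjusted p = 0.00517). For both genes the ob/ob-Veh libraries lay above WT-Veh. The number of cells in which a gene was found also depends on depth. The median LEC held 2497 UMIs in WT-Veh and 9072.5 and 3819 UMIs in ob/ob-Veh libraries 1 and 2. Igfbp5 was singled out after its values were seen. Retnla, the secreted RELMα, stood at 25.003 CPM (1 UMI) in WT-Veh and at 777 and 612 CPM in ob/ob-Veh. Tgfbi, a secreted protein induced by TGF-β, had 0 UMIs in WT-Veh and stood at 470 and 385 CPM in ob/ob-Veh, at least 5.70-fold higher than the 3-UMI limit of the WT-Veh library. Retnla and Tgfbi passed the filter through ob/ob-Veh alone.

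In the blood endothelial cells of the same libraries, Retnla stood at 133 CPM in WT-Veh and at 776 and 788 CPM in ob/ob-Veh, and over all kept cells at 516 and at 4682 and 4224 CPM. Igfbp5 also rose in blood endothelial cells (log2 change 2.55, edgeR adjusted p = 5.16e-07) and so did Timp3 (1.51, edgeR adjusted p = 6.89e-05). The difference of the LEC effect from the blood endothelial effect did not pass for these 3 genes (edgeR interaction adjusted p = 0.431 for Retnla, 0.495 for Igfbp5 and 0.697 for Timp3). Over all kept cells Igfbp5 stood at 31.3 CPM in WT-Veh and at 387 and 321 CPM in ob/ob-Veh. Timp3 stood there at 74.3 CPM in WT-Veh and at 579 and 842 CPM in ob/ob-Veh. The part of free RNA in the Retnla, Igfbp5 and Timp3 values was not tested.

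Fxyd6 also rose in LECs, and Dtx1 and Fxyd6 were low in blood endothelial cells. Dtx1, a ubiquitin ligase of the Notch pathway, stood at 25.003 CPM (1 UMI) in WT-Veh and at 403 and 311 CPM in ob/ob-Veh, with 0 UMIs in blood endothelial cells of the 3 libraries. Fxyd6, a regulator of the sodium pump, stood at 125 CPM against 767 and 819 (log2 change 2.65, SE 0.61, edgeR adjusted p = 0.00282), and in blood endothelial cells at 6.89, 0 and 1.94 CPM. Rpn2, a subunit of the oligosaccharyltransferase of the endoplasmic reticulum, had 0 UMIs against 177 and 212 CPM, at least 2.60-fold higher than the 3-UMI limit, while in blood endothelial cells it stood at 131, 137 and 117 CPM. Dtx1 and Rpn2 passed the filter through ob/ob-Veh alone. Gpm6a and Tppp3 also passed, at 50.006 against 408 and 439 CPM and at 75.0 against 633 and 498 CPM. The WT-Veh LEC level of Gpm6a rested on 2 UMIs. In blood endothelial cells Gpm6a stood at 0, 25.4 and 10.1 CPM and Tppp3 at 31.0, 99.6 and 70.1 CPM. Both genes also passed as higher there in edgeR (log2 change 7.46 for Gpm6a and 1.28 for Tppp3). Fxyd6, Gpm6a and Tppp3 were singled out after their values were seen.

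Of 23 tested genes of the response to tissue dissociation, 3 that reached the filter's minimum in both groups rose and 0 fell. Over all 4752 tested genes, 8 that reached it were called higher and 24 lower. The 3 were the immediate early genes Fos (50.006 CPM in WT-Veh, 763 and 563 in ob/ob-Veh), Egr1 (125 against 643 and 1091) and Jund (150 against 729 and 577). In WT-Veh their levels rested on only 2, 5 and 6 UMIs, in the same order. Dusp1, a MAP kinase phosphatase, stood at 25.003 against 643 and 439 CPM and passed the filter through ob/ob-Veh alone. In blood endothelial cells of the same libraries Fos stood at 756, 765 and 899 CPM and Dusp1 at 625, 681 and 530 CPM, so their WT-Veh level was not low there. Over all kept cells Fos stood at 1091, 2199 and 1740 CPM. For Fos, Egr1 and Jund the LEC effect exceeded the blood endothelial effect (edgeR interaction adjusted p = 3.48e-05, 0.015 and 0.0217). With the blood endothelial sums thinned to the LEC sums none of these 3 differences passed (log2 3.01, 1.75 and 1.49, edgeR adjusted p = 0.119, 0.546 and 0.662, in the same order). For Dusp1, with 1 UMI in the WT-Veh LECs, the difference is a description. The part of the digest in this difference was not tested.

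Genes at lower levels in ob/ob-Veh LECs included matrix genes that stromal cells make. Mgp, an inhibitor of calcification, stood at 1125 CPM in WT-Veh and at 4.80 and 34.5 CPM in ob/ob-Veh. In blood endothelial cells Mgp fell from 678 to 147 and 196 CPM (log2 change -2.11, edgeR adjusted p = 1.02e-11), and over all kept cells it stood at 1906, 294 and 325 CPM. Col3a1 stood at 1325 against 52.8 and 128 CPM (-3.88, SE 0.42, edgeR adjusted p = 6.22e-17), Col1a1 at 550 against 14.4 and 24.7, Mfap5 at 475 against 28.8 and 14.8 and Col6a2 at 300.0 against 28.8 and 19.7. Mgp, Col1a1, Mfap5 and Col6a2 passed the filter through WT-Veh alone. Over all kept cells Col3a1, Col1a1, Mfap5 and Col6a2 did not fall as Mgp did. In WT-Veh and ob/ob-Veh libraries 1 and 2, Col3a1 stood there at 1912, 2790 and 2608 CPM and Col1a1 at 802, 918 and 868. Mfap5 stood at 437, 841 and 576 CPM and Col6a2 at 271, 361 and 408. Of 8 tested genes of the adipose stroma list, 4 that reached the filter's minimum in both groups were called lower, Col3a1, Col1a2, Dcn and Gsn, and 0 were called higher. Over all 4752 tested genes, 24 that reached it were called lower and 8 higher.

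For each gene the 2 of the 15 WT-Veh cells with most of its UMIs were taken. They held 75.5% of the 53 Col3a1 UMIs, 81.8% of the 22 Col1a1 UMIs and 91.7% of the 12 Col6a2 UMIs. The stroma list summed to 6901 CPM in the WT-Veh LECs and to 945 and 1564 in ob/ob-Veh, the macrophage list to 2575, 1338 and 642, the mural list to 50.006, 57.6 and 74.0, and the lymphocyte list to 0, 33.6 and 34.5. All 12 stroma genes and all 12 macrophage genes had UMIs in the LECs, Pdgfra and Ptprc being 0 by the rule. When the 3 LECs with 1.5% or more of their UMIs on these 4 lists were left out, a limit set after the data were seen and met only in WT-Veh, 0 stroma genes passed in edgeR. The limit is set on UMIs of these same genes, so the loss of their calls was built into it and is no test of them. Col3a1 was then at a log2 change of -2.11, Mfap5 at -3.33 and Col1a2 at -0.10, and Col1a1 no longer passed the count filter. Igfbp5, Timp3 and Lgals3 still passed. Fxyd6, Gpm6a and Jund did not, although their log2 changes stayed near those with all cells, at 2.28, 2.68 and 2.00 against 2.65, 3.05 and 2.11 (edgeR adjusted p = 0.0595, 0.133 and 0.1996 without the 3 cells). In all, 21 genes then passed, 9 higher and 12 lower, 20 of them among the 44.

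**Figure D5:**
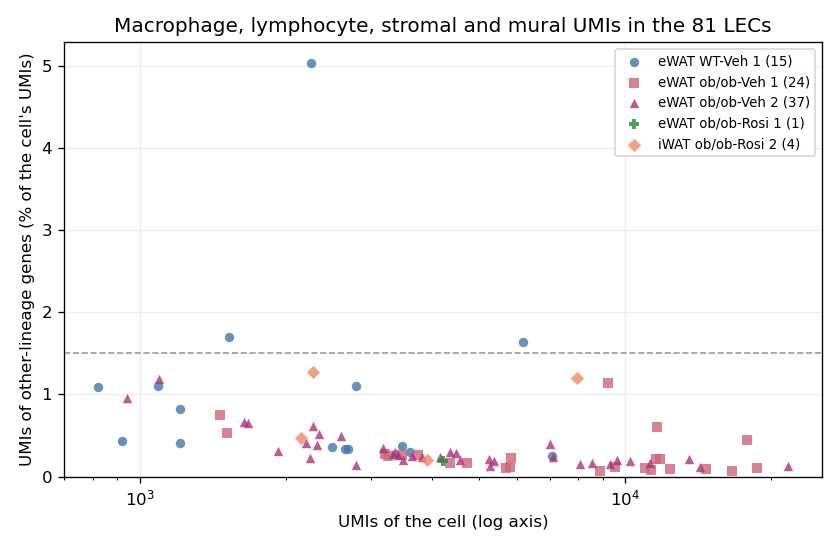
UMIs of the macrophage, lymphocyte, adipose stroma and mural lists as a percent of each LEC's UMIs, against the UMIs of the cell (logarithmic axis), for the 81 LECs with the library given by marker and colour. The 3 cells above the dashed line at 1.5% all come from eWAT WT-Veh library 1.

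Over all 4752 tested genes edgeR called 0.652% lower and 0.274% higher, and 2640 stood above zero. Of 19 tested genes of PPAR and lipid handling, 5 fell and 0 rose in edgeR, 0 were called by DESeq2, and 6 stood above zero. Those that fell were Cd36 (1125 CPM in WT-Veh, 269 and 153 in ob/ob-Veh), Lpl, lipoprotein lipase (600.1 against 76.7 and 178), Apoe (2175 against 950 and 558), Mgll, monoglyceride lipase (1050 against 355 and 350), and Fabp4 (1050 against 201 and 553). Without the 3 WT-Veh cells, Cd36 (-2.75), Fabp4 (-1.65) and Apoe (-1.52) still passed. Mgll stayed near its value with all cells (-1.51 against -1.58, edgeR adjusted p = 0.0711 without them), and Lpl did not (-1.21 against -2.25, edgeR adjusted p = 0.522 without them). In blood endothelial cells Apoe (-1.99, edgeR adjusted p = 5.03e-10) and Mgll (-0.83, edgeR adjusted p = 0.0284) also fell. Over all kept cells Apoe stood at 19798 CPM in WT-Veh and 2491 and 3463 in ob/ob-Veh, Lpl at 2149, 729 and 920.03, and Cd36 at 1699.6, 537 and 1075. There Fabp4 stood at 2964, 1800 and 5617 CPM and Mgll at 101, 98.2 and 238 CPM, so in ob/ob-Veh library 2 these were above WT-Veh. With 2 or more Prox1 UMIs required, at a minimum of 9 LECs per library, 1 of the 5 genes, Cd36, passed, and Apoe stood at -0.66 and Lpl at -0.65. With Lyve1 accepted in place of Prox1 in eWAT alone, of the 5 genes Apoe alone passed in edgeR, at -1.89. Cd36 then stood at -0.46, Mgll at -0.95, Lpl at -1.25 and Fabp4, whose direction turned, at 0.15. Over the whole list 3 genes then passed as lower, Apoe among them, and 1 as higher. The latter was Cav1, the caveolar protein caveolin 1, named after its value was seen.

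Lgals3, or galectin 3, stood at 1050 CPM in WT-Veh LECs and at 67.1 and 183 in ob/ob-Veh (log2 change -3.09, SE 0.42, edgeR adjusted p = 3.72e-10), and Ftl1, ferritin light chain, at 2475 against 993 and 1066 CPM. Lyz2, the lysozyme of macrophages and 1 of 9 tested genes of the macrophage list, fell from 1025 to 288 and 321 CPM. All 3 also fell in blood endothelial cells, and by more (edgeR interaction adjusted p = 0.000378 for Lgals3, 0.0217 for Lyz2 and 0.025 for Ftl1, none of which passed with thinned blood endothelial sums). There Lgals3 stood at 1332 CPM in WT-Veh and 39.2 and 62.8 in ob/ob-Veh, and over all kept cells at 5108, 257 and 314 CPM. They are abundant in macrophages, and how much of these values is free RNA was not tested. Lgals3 and Ftl1 were singled out after their values were seen.

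Among basement membrane and matrix genes, Timp3 rose and Sparc (800.1 CPM against 86.3 and 143) and Fbln2 (750.1 against 120 and 123) fell, of 19 tested, and without the 3 WT-Veh cells Timp3 alone of these passed. No gene of the lists for VEGF-C and VEGFR-3 signalling (8 tested), leukocyte passage (14), junctions (15), Notch (5), NF-κB inflammation (12), interferon and MHC class I (14) or MHC class II (4) passed in edgeR or DESeq2. At the 0.926% called by edgeR among all 4752 tested genes, the absence of a call in these short lists is no result about them. Cd74, the invariant chain of MHC class II, stood at 250.03 CPM in WT-Veh and at 513 and 360.2 CPM in ob/ob-Veh. In ob/ob-Veh library 1, 2 of the 24 cells held 85 of the 107 Cd74 UMIs, together with 14 and 10 UMIs of C1qa. Without them Cd74 stood at 121 CPM there, below WT-Veh.

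The ob/ob-Veh against WT-Veh effect in LECs was compared with that in blood endothelial cells of the same 3 libraries by the interaction of cell type and group, with library as a block. The interaction used the same LEC sums as the LEC fit, so an overlap of their calls was built in. That overlap also counts genes that passed the LEC count filter through 1 group alone. Of 7926 genes, 72 (0.908%) differed, 50 with a higher and 22 with a lower effect in LECs, and 24 of the 44 genes called in LECs were among them. With library size alone in place of TMM scaling the split was 24 higher and 26 lower. With the blood endothelial sums thinned to the LEC sums, 16 of 6229 genes passed, 15 with a lower effect in LECs and 1 with a higher, the MHC class II gene H2-Ab1, named after its value was seen. A single eWAT LEC held 128 UMIs of the MHC class II list, and the 2 cells with most Cd74 in ob/ob-Veh library 1 also held C1qa. In blood endothelial cells alone, 1190 of 9303 genes (12.8%) passed. For Cldn5, the main claudin of endothelium, LECs stood at 1875, 1448 and 1944 CPM while blood endothelial cells fell from 4648 to 1632 and 1445 CPM, and the effects differed (interaction log2 1.80, edgeR adjusted p = 6.30e-05), but not with thinned blood endothelial sums (1.17, edgeR adjusted p = 0.151). Lpl and Cd36, which fell in LECs, did not pass in blood endothelial cells, where levels in the order of libraries were 993, 1507 and 1939 CPM for Lpl and 7664, 7306 and 7627 CPM for Cd36 (interaction log2 -2.70 and -2.03, edgeR adjusted p = 3.22e-05 and 0.00196). With thinned sums both still differed (-3.41 and -2.53, edgeR adjusted p = 3.59e-07 and 2.47e-05).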

How the data were processed

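The authors sequenced 12 10x Genomics 3′ libraries and deposited, for each, a matrix of raw UMI counts per gene and barcode; per the submitters' processing notes these came from bcl2fastq 2.19.1.403 and Cell Ranger 3.0.2 with mm10. No removal of free RNA or of doublets is named in the sources used here, and doublets were not called. The inguinal matrices list gene symbols without identifiers, in the order of the epididymal ones, so identifiers were taken from the latter.

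Barcodes were kept by the study's limits, which left 6472 to 17500 cells and 19593940 to 66315901 UMIs per library. The LEC rule, the genes and lists and the gates were chosen with earlier results of these data known; the macrophage gate was C1qa and C1qb at 2 UMIs or more with Ptprc, the stromal gate Pdgfra without Ptprc, each without the other's genes or Cdh5 and Pecam1, the macrophage gate also without Prox1.

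Raw counts of LECs were summed per library with at least 10 LECs and tested with edgeR 4.0.16 (quasi-likelihood, TMM, filterByExpr, limma 3.58.1, R 4.3.3), calling genes at a Benjamini-Hochberg adjusted p of 0.05 and 1.1-fold, the study's minimum; DESeq2 1.42.0 was an alternative. Cells of a library were not treated as replicates. Shares were compared by exact permutation over libraries (SciPy 1.17.1), with exact Clopper-Pearson 95% intervals. The test code was checked on simulated counts. Named genes were the markers, the lymphatic lists, the 6 called genes per direction of largest fold at 50 CPM or more with libraries of the groups not overlapping, called list members, and, beside LEC levels, the 20 genes with the highest ratio to other cells at 100 CPM or more, of which 1 is not reported here; others are named as chosen after their values were seen. Library numbers were not stated to pair animals across groups or depots.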

Additional observations from a re-analysis of the deposited data

Results flagged for a closer look

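These genes are given because their ob/ob-Veh against WT-Veh effect differed between LECs and blood endothelial cells of the same 3 eWAT libraries (edgeR interaction, Benjamini-Hochberg adjusted p at or under 0.05). Each value is the log2 effect in LECs minus that in blood endothelial cells.

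Among immediate early genes the difference was 4.82 for Dusp1, 3.94 for Fos, 2.33 for Egr1 and 2.15 for Jund. It was 1.80 for Cldn5, which other endothelial cells share, and 1.52 for the transcription factor Maf. Fxyd6 differed by 5.22. For genes abundant in macrophages, which fell in both cell types and less in LECs, it was 1.99 for Lgals3, 1.38 for Lyz2 and 1.22 for Ftl1.

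For matrix genes the effect was lower in LECs, by differences of -3.50 for Mgp, -2.73 for Mfap5, -2.70 for Col1a1, -2.59 for Col6a2, -2.41 for Fbln2, -2.38 for Col3a1, -2.03 for Sparc and -1.92 for Col1a2. In blood endothelial cells Mgp, Mfap5, Col1a1, Col3a1 and Col1a2 also fell, while Col6a2, Sparc and Fbln2 did not pass (log2 -0.82, -0.56 and 0.00027). In the WT-Veh LECs, 62.5% to 91.7% of the UMIs of each of these 8 genes lay in the 2 cells with most of them, taken gene by gene. Lipid genes differed by -2.70 for Lpl and -2.03 for Cd36.

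Several differences rest on a LEC level of 0 to 2 UMIs in a library, as do those of Fos (2 UMIs in WT-Veh), Dusp1 (1 UMI in WT-Veh) and Mgp (1 UMI in ob/ob-Veh library 1) above, so their size depends on the prior count of the fit. They were 10.55 for Rnf19b, 10.47 for Tgfbi and 10.26 for Rpn2 (all 0 UMIs in the WT-Veh LECs), 4.87 for Ccl8 and 4.84 for Ighm (1 UMI there), and -10.58 for Sparcl1, -8.15 for Scd1, -6.05 for Adamts2, -6.01 for Meg3 and -4.64 for Cygb (0 to 2 UMIs in the ob/ob-Veh LECs). Gas1 differed by -4.53, with 2 UMIs in ob/ob-Veh library 1. For Scd1, a fatty acid desaturase, blood endothelial cells stood at 8.61 CPM in WT-Veh and at 386 and 243 CPM in ob/ob-Veh.

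With the blood endothelial sums thinned to the LEC sums, no positive difference given here passed. Of the negative ones, those of Mgp, Col1a1, Col6a2, Fbln2, Col3a1, Sparc, Col1a2, Lpl, Cd36, Sparcl1 and Scd1 still passed in edgeR. The interaction was not refitted without the 3 WT-Veh LECs left out above. Without them the LEC log2 changes were -0.10 for Col1a2, -0.90 for Fbln2, -1.21 for Lpl and -1.50 for Sparc. They were -2.11 for Col3a1, -2.75 for Cd36 and -4.14 for Mgp, while Col1a1 and Col6a2 were no longer fitted. In the LEC fit Mgp, Mfap5, Col1a1 and Col6a2 passed the count filter through WT-Veh alone, and Dusp1, Tgfbi and Rpn2 through ob/ob-Veh alone. The differences of these genes are therefore a description. Sparcl1 stood in LECs at 175, 0 and 0 CPM in WT-Veh and ob/ob-Veh libraries 1 and 2, with 7 UMIs in all eWAT LECs. Scd1 stood at 100, 9.59 and 9.87 CPM in the same order.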

How the results depend on the processing

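For shares, no test passed the threshold under any alternative. The ob/ob-Rosi minus WT-Veh difference in the share of kept cells turned to 0.0165 points with Lyve1 accepted in place of Prox1. That rule, a Prox1 or a Lyve1 UMI, took in 197 cells, of which the 73 of iWAT are described below. Without eWAT WT-Veh library 1 the difference turned to 0.00836 points, and that in endothelial cells to 0.137 points. The ob/ob-Veh minus WT-Veh difference in endothelial cells turned to -0.0281 points with cells thinned to 700 UMIs. Leaving out each library, the ranges for kept cells were -0.174 to -0.102 points (iWAT minus eWAT), 0.105 to 0.213 (ob/ob-Veh minus WT-Veh), -0.230 to -0.123 (ob/ob-Rosi minus ob/ob-Veh) and -0.0426 to 0.00836 (ob/ob-Rosi minus WT-Veh), and for endothelial cells -5.41 to -3.37, 1.98 to 5.04, -6.02 to -3.79 and -2.92 to 0.137. Leaving out the 4 iWAT cells moved no direction.

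With the replicate block (a sign-flip of same-numbered libraries) the iWAT minus eWAT difference of -0.138 points had an exact permutation p of 0.188 over 6 pairs, and -4.39 points had 0.125. No paired analysis was possible for genes because 3 libraries leave no residual degree of freedom, so whether same-numbered libraries deviate together could not be checked there.

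Of the 44 genes called (13 higher, 31 lower), the count went to 0 (0 and 0) with no filter on low counts and with Lyve1 in place of Prox1 over 7 libraries (435 and 426 genes at an unadjusted p under 0.05), to 7 (4 and 3) of 329 tested with cells thinned to 700 UMIs, and to 5 (1 and 4) with DESeq2. With alternatives chosen after seeing the data it went to 122 (45 and 77) with Lyve1 in eWAT alone, to 21 (9 and 12) without the 3 WT-Veh cells, and to 32 (15 and 17) with 2 or more Prox1 UMIs and a minimum of 9 LECs per library. The 73 iWAT cells under the Lyve1 rule held Ccl21a at 1.94 and Gpihbp1 at 4099 CPM, and 2 of them held Mmrn1. Its 124 eWAT cells held Ccl21a at 7870 and Gpihbp1 at 1160 CPM, and 101 of them held Mmrn1. The causes of these changes in the number of calls were not tested. Fabp4 turned to a log2 change of 0.16 and 0.15 under the Lyve1 rule over all and eWAT libraries. The 72 interaction calls went to 16 (1 higher) with blood endothelial sums thinned, and those higher to 24 with library size alone. A minimum of 20 LECs, 2 Prox1 UMIs at a minimum of 10, and removal of LECs with 2 other-lineage UMIs (every LEC held at least 4) left nothing to fit.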

Other observations

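Of 20 cell cycle genes, 2 had 0 UMIs in the eWAT LECs, which allows up to 6.59 CPM, and the list summed to 821 CPM in LECs against 628 in blood endothelial cells and 1709 in macrophages. By library it summed to 1750.2 CPM in the WT-Veh LECs and to 585 and 878 in ob/ob-Veh. The 5 haemoglobin and red cell genes summed to 6.59 CPM in LECs and 1451 in blood endothelial cells.

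A pair of genes usually listed for arteries were high in LECs. Stmn2, a neuronal regulator of microtubules, stood at 290 CPM in LECs against 10.2 in blood endothelial cells, at 250.03, 283 and 311 CPM in WT-Veh library 1 and ob/ob-Veh libraries 1 and 2. Bmx, a tyrosine kinase, stood at 54.9 against 1.51 CPM. The arterial genes Gja5 and Sema3g had 0 UMIs in the 77 cells, and Sema3g stood at 193 CPM in blood endothelial cells. These genes were noticed after their values were seen and no test was made.

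In the 4 iWAT LECs, Prox1 was present at 1 UMI in each, and over all kept cells the iWAT ob/ob-Veh libraries held Prox1 at 1.93 and 1.22 CPM, above the 1.12 CPM of eWAT WT-Veh library 1, while their Mmrn1 stood at 0.197 and 0.510 CPM against 6.54.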
